A study of Mus musculus with 6 samples.

Results

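Potassium and HCN channel genes were followed in ribosome-associated RNA from D2 neurons of the mPFC, with and without knockout of GSK3β. The members were chosen by their gene names, which had to begin with Kcn and a further letter or be Hcn followed by a number from 1 to 4, without pseudogenes and most antisense genes. This gave 100 of the 47729 genes in the data, with 340 of the 115220 transcripts. Of these 98 encode channel subunits, and 2, Kcnmb4os1 and Kcnmb4os2, are antisense genes of Kcnmb4 whose names the rule keeps. By their known roles, 71 of the 98 form the pore of a channel, 10 are silent modifiers that act only inside channels of other subunits, 16 are auxiliary subunits, and Kcnrg encodes a regulator related to these channels.

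The 6 libraries came from adult male D2Cre/LSL-Flag-Cas9/RiboTag mice of the C57BL/6 strain, 3 weeks after a virus was injected into the mPFC. The Ctrl group (3 libraries) received AAV GFP and the Gsk3sKO group (3 libraries) received AAV Gsk3sgRNA/GFP, so both groups carried D2Cre, Cas9 and the tagged ribosome, and they differed in the guide RNA against exon 3 of Gsk3b. Cre was driven from a bacterial artificial chromosome with D2 receptor sequences, and it switched on Cas9 and a hemagglutinin tag on the ribosomal protein Rpl22, so that the tag marks cells in which that transgene was or had been active. The sources used here do not say whether each library came from a separate mouse, so the p-values rest on how much these libraries differ within a group, which could be technical.

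Potassium channels let potassium leave a neuron and thereby hold the resting potential, end the action potential and set the rate of firing. Voltage-gated (Kv) channels open on depolarisation, calcium- and sodium-activated channels on a rise of these ions, inward rectifiers carry current mainly near rest, and tandem-pore (K2P) channels leak at most voltages. HCN channels are their relatives that open on hyperpolarisation, pass sodium as well as potassium, and bind cyclic AMP. The D2 receptor acts in part through G protein subunits that open the inward rectifiers called GIRK channels. In pyramidal neurons of the prefrontal cortex, Kv7, Kv1, Kv2, Kv4, SK and HCN channels are known to shape how inputs are summed and how often a cell fires.

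All pore-forming subunits share a short selectivity filter, and its sequence shows what the rule by names collected. The coding frame was searched for codons of threonine, serine or cysteine, then any residue, glycine, tyrosine or phenylalanine, and glycine, with leucine also allowed at the middle place of the K2P genes. A match was found in 69 of the 71 pore genes and in 10 of the 10 silent modifiers, and in 0 of the 16 auxiliary subunit genes. The 2 pore genes without a match were Kcnq1 and Kcnu1, searched in the transcript with the highest level here. Those transcripts have only 147 and 481 coding bases, so the search does not show whether longer transcripts of these genes hold the signature. The windows below, 33 bases of coding sequence in GRCm38 with the 3 signature codons in capitals, are shown for 1 gene each of 6 groups, because they are what joins genes as different as Kcna2 and Kcnk1.
Kcna2 (Kv1), chr3:107105215-107105247, plus strand: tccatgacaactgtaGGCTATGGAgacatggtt
Kcnf1 (silent modifier), chr12:17175052-17175084, minus strand: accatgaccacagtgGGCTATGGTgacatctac
Kcnh3 (ELK), chr15:99232920-99232952, plus strand: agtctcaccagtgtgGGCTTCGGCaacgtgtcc
Kcnma1 (BK), chr14:23528404-23528436, minus strand: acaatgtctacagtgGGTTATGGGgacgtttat
Kcnt1 (sodium-activated), chr2:25894358-25894390, plus strand: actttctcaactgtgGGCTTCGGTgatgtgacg
Kcnk1 (K2P, the later of its 2 pore windows), chr8:126025320-126025352, plus strand: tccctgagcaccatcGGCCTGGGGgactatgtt
The middle codon of the capitals reads as tyrosine (TAT) in Kcna2, Kcnf1 and Kcnma1, as phenylalanine (TTC) in Kcnh3 and Kcnt1 and as leucine (CTG) in Kcnk1.

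FPKM, which scales the fragments of a transcript to its length and to all mapped fragments of the library, was summed over the transcripts of a gene to give its total, and the totals can be compared between genes because they are per length. The spacing of low values placed the libraries at about 23.5 to 45.2 M reads, an estimate, since 11.6% to 25.8% of the low values used lay within 0.01 reads of a whole number. Ctrl replicate 1 and Gsk3sKO replicate 3 stood apart from the others, having the lowest level for 29.9% and 35.8% of the 67 members tested, against 24.4% and 28.4% of all genes tested, whereas Gsk3sKO replicate 1 was lowest for 1 member. Gsk3b itself had 35.6, 53.8 and 56.5 FPKM in Ctrl and 36.9, 37.0 and 33.6 FPKM in Gsk3sKO (log2 fold change of Gsk3sKO against Ctrl on log2(FPKM + 1) -0.40, standard error [SE] 0.19), and the groups overlapped because Ctrl replicate 1 lay within the Gsk3sKO range. An edit within an exon can leave most of an RNA in place, so this level says little about how many cells were edited. Drd2, whose regulatory sequences drive Cre, had 1.58, 6.02 and 14.1 FPKM in Ctrl and 8.32, 5.96 and 7.28 FPKM in Gsk3sKO, so its level differed widely within Ctrl. Inhibitory and excitatory neuron markers were also abundant, with Sst at 652 to 942 FPKM and Camk2a at 482 to 656 FPKM. In such bulk samples, fewer cells of a type and less RNA per cell cannot be told apart.

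Channel genes covered a wide range of levels. Of the 100 members, 89 were above 0 in at least 1 library and 67 had a mean of at least 1 FPKM over the 6 libraries, the minimum for a test. These 67 comprise 49 pore genes, 8 silent modifiers, 9 auxiliary subunit genes and 1 antisense gene. The median member tested had a mean of 9.63 FPKM, which lies at percentile 53.5 of all 12874 genes tested (median 8.61 FPKM), and 19 of the 67 were in the top 25% of genes. The 5 highest means were led by the auxiliary subunits Kcnab2 (89.9 FPKM) and Kcnmb4 (53.0 FPKM) and followed by the pore genes Kcnj4 (48.4 FPKM), Kcnma1 (41.7 FPKM) and Kcnj9 (41.2 FPKM). The plot of the level of each gene in each library shows how the points of most genes lie together while the genes spread over several orders of magnitude.

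**Figure D1:**
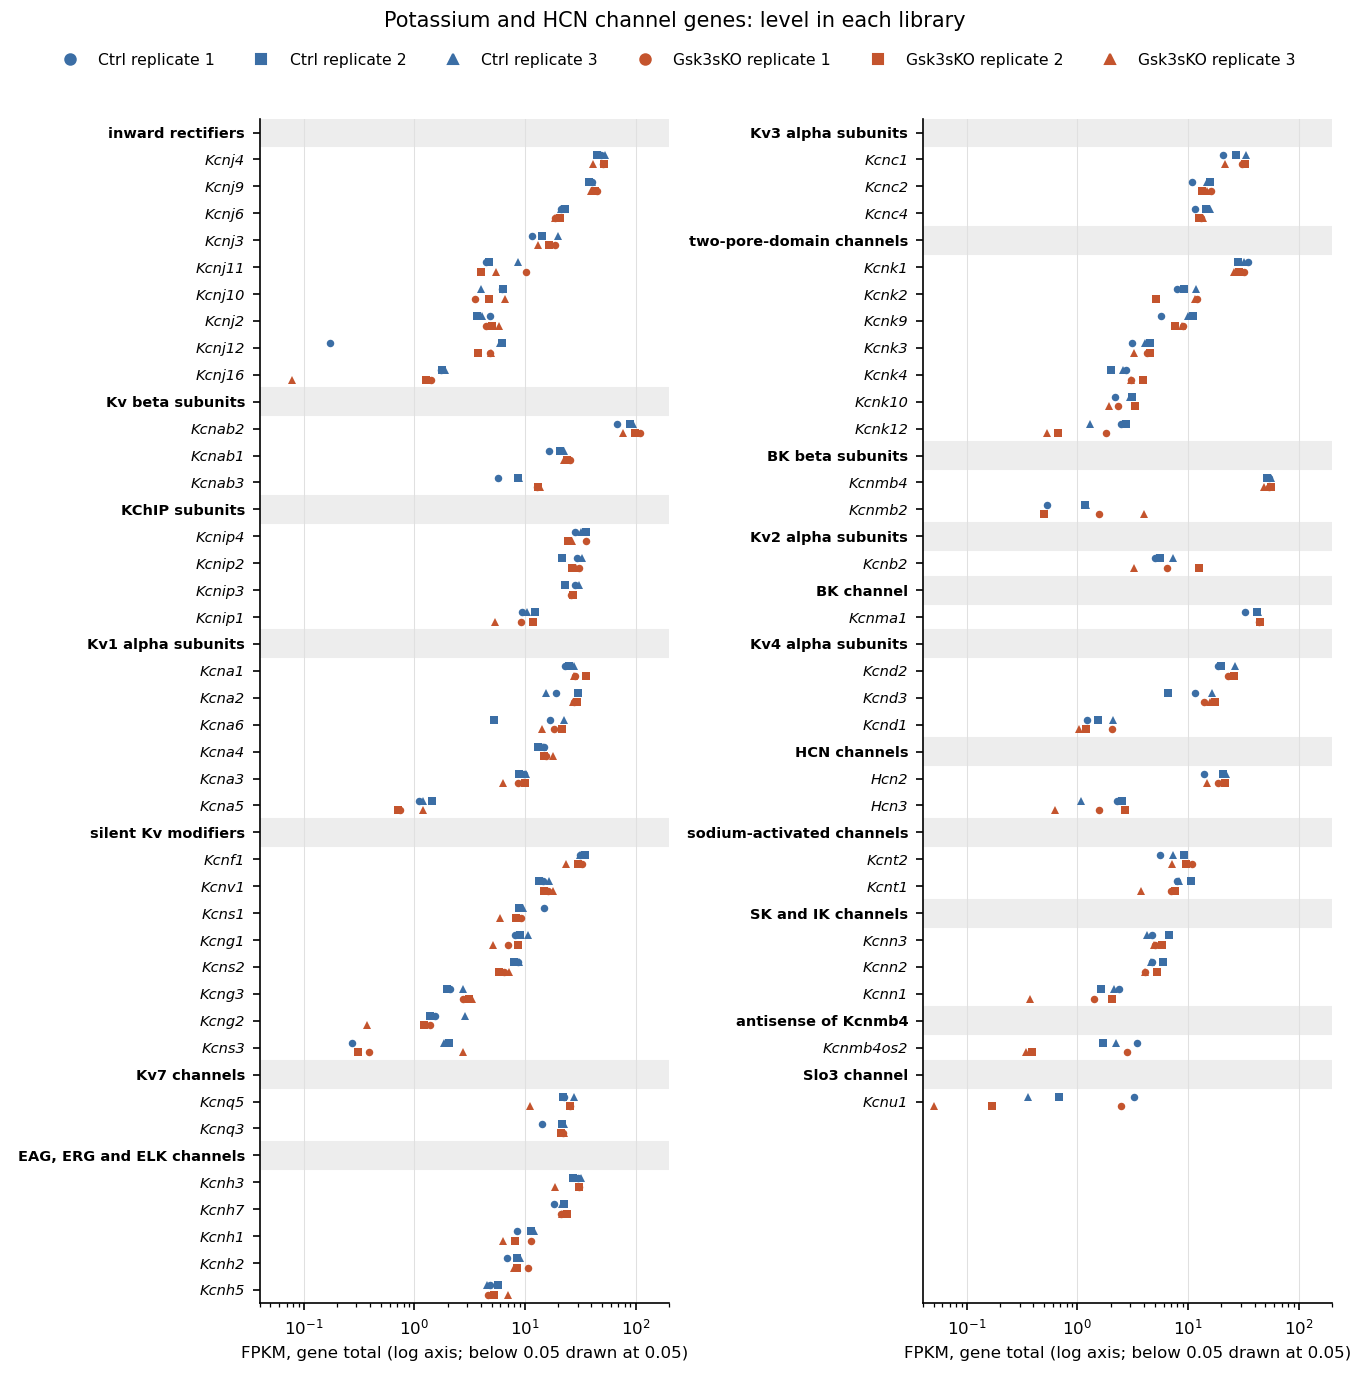
Level of 63 of the 67 tested potassium and HCN channel genes in each library, as FPKM of the gene total on a log axis, with Ctrl in blue, Gsk3sKO in red and the marker shape giving the replicate number. Kcnab2 leads at 68.5 to 110.1 FPKM, and the points of most genes lie close together.

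Summed over a family, inward rectifiers held the highest level, with 141, 145 and 160.2 FPKM in Ctrl and 158, 151 and 137 FPKM in Gsk3sKO, or 14.1% of all channel FPKM. The Kv beta subunits, of only 3 genes, had 90.9, 119 and 126 FPKM in Ctrl and 148, 137 and 113 FPKM in Gsk3sKO, and the 4 KChIP subunits had 95.5, 93.6 and 106 FPKM in Ctrl and 102, 90.4 and 88.4 FPKM in Gsk3sKO. These sums overlapped between Ctrl and Gsk3sKO in all 3 families. Among families of several genes, 2 had sums that did not overlap. Over all genes tested, single gene totals lay wholly above Ctrl in Gsk3sKO for 3.71% and wholly below for 8.30%. The count of 2 is therefore not read as a result about families. The Kv1 alpha subunits were higher in every Gsk3sKO library, with 84.5, 84.0 and 92.4 FPKM in Ctrl and 95.3 to 112.7 FPKM in Gsk3sKO. The silent modifiers were lower in every Gsk3sKO library, with 81.5, 81.0 and 85.6 FPKM in Ctrl and 77.1, 73.1 and 66.4 FPKM in Gsk3sKO. A sum is carried by its most abundant genes, here Kcna1 and Kcna2 for Kv1 and Kcnf1 and Kcnv1 for the silent modifiers, and no test was made on these sums.

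**Figure D2:**
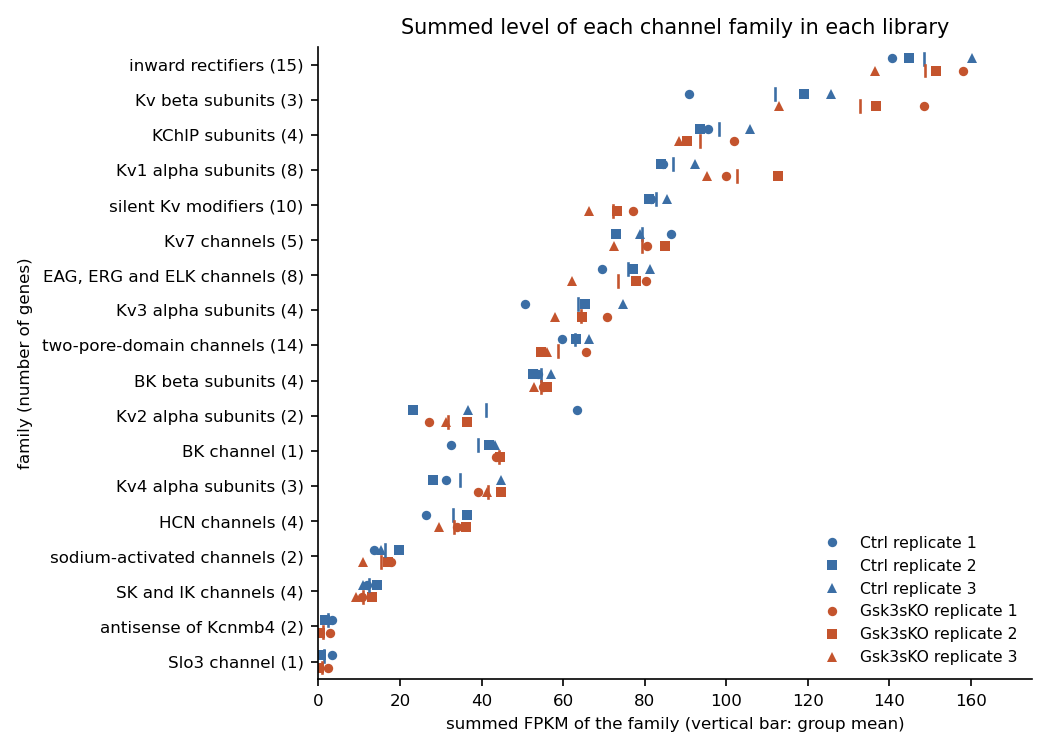
Summed FPKM of each channel family in each library (horizontal axis), with 1 row per family, blue points for Ctrl, red points for Gsk3sKO and a vertical bar at each group mean. The Kv1 alpha sums lie at 84.0 to 92.4 in Ctrl and 95.3 to 112.7 in Gsk3sKO, and the silent modifiers at 81.0 to 85.6 and 66.4 to 77.1.

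The comparison of Gsk3sKO with Ctrl asked whether the ribosome-associated RNA of these channels differs when GSK3β is removed from D2 neurons. In limma on log2(FPKM + 1), 1 of the 67 members, Kcnab3, had an unadjusted p under 0.05 and was thereby called, which is 1.49%, and it was higher in Gsk3sKO. Over all 12874 genes tested the called share was 6.56%, made up of 1.36% called higher and 5.20% called lower. No member fell by this criterion, and none had an adjusted p under 0.05 (lowest 0.607) after Benjamini-Hochberg adjustment over all genes, where 0.0466% of genes did. The share of members called was thus below that of genes at large in this setting, but it rests on 1 gene and depends on the setting. With FPKM multiplied by transcript length, an alternative given below, 4 of the 67 members were called, beside 5.89% of all genes. The median log2 fold change of the members was -0.02, with 32 above 0 and 35 below, beside a median of -0.06 over all genes.

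Differences between the groups were small in size on log2(FPKM + 1), where the added 1 shrinks the folds of low genes. The log2 fold changes of the members ran from -0.81 for the antisense gene Kcnmb4os2 to 0.74 for Kcnab3. On this scale 0 of the 67 exceeded a 2-fold change, beside 397 of all 12874 genes. With a pseudocount of 0.1, low members exceeded it, among them Kcnmb4os2 (-1.52), Kcnj16 (-1.41), Kcnu1 (-1.37) and Kcnk12 (-1.15), none of these called. The 95% confidence interval lay within a 2-fold change in either direction for 50 members (74.6%; all genes 68.5%) and within 1.5-fold for 22. The median standard error was 0.23. The means of Ctrl and Gsk3sKO were within 1.5-fold of each other for 59 of 67 members, and the ranks of the members in the 2 groups were alike (Spearman's rho 0.976, across genes, which are not independent replicates). For 12 members the 3 libraries of one group all lay above those of the other, in 7 with Gsk3sKO above (Kcnma1, Kcna1, Kcnab1, Kcna4, Kcnab3, Kcnk4 and Kcng3) and in 5 with Gsk3sKO below (Kcnj6, Kcnt1, Kcns2, Kcng2 and Kcnj16). Over all genes tested, Gsk3sKO lay wholly above Ctrl for 3.71% and wholly below for 8.30%.

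**Figure D3:**
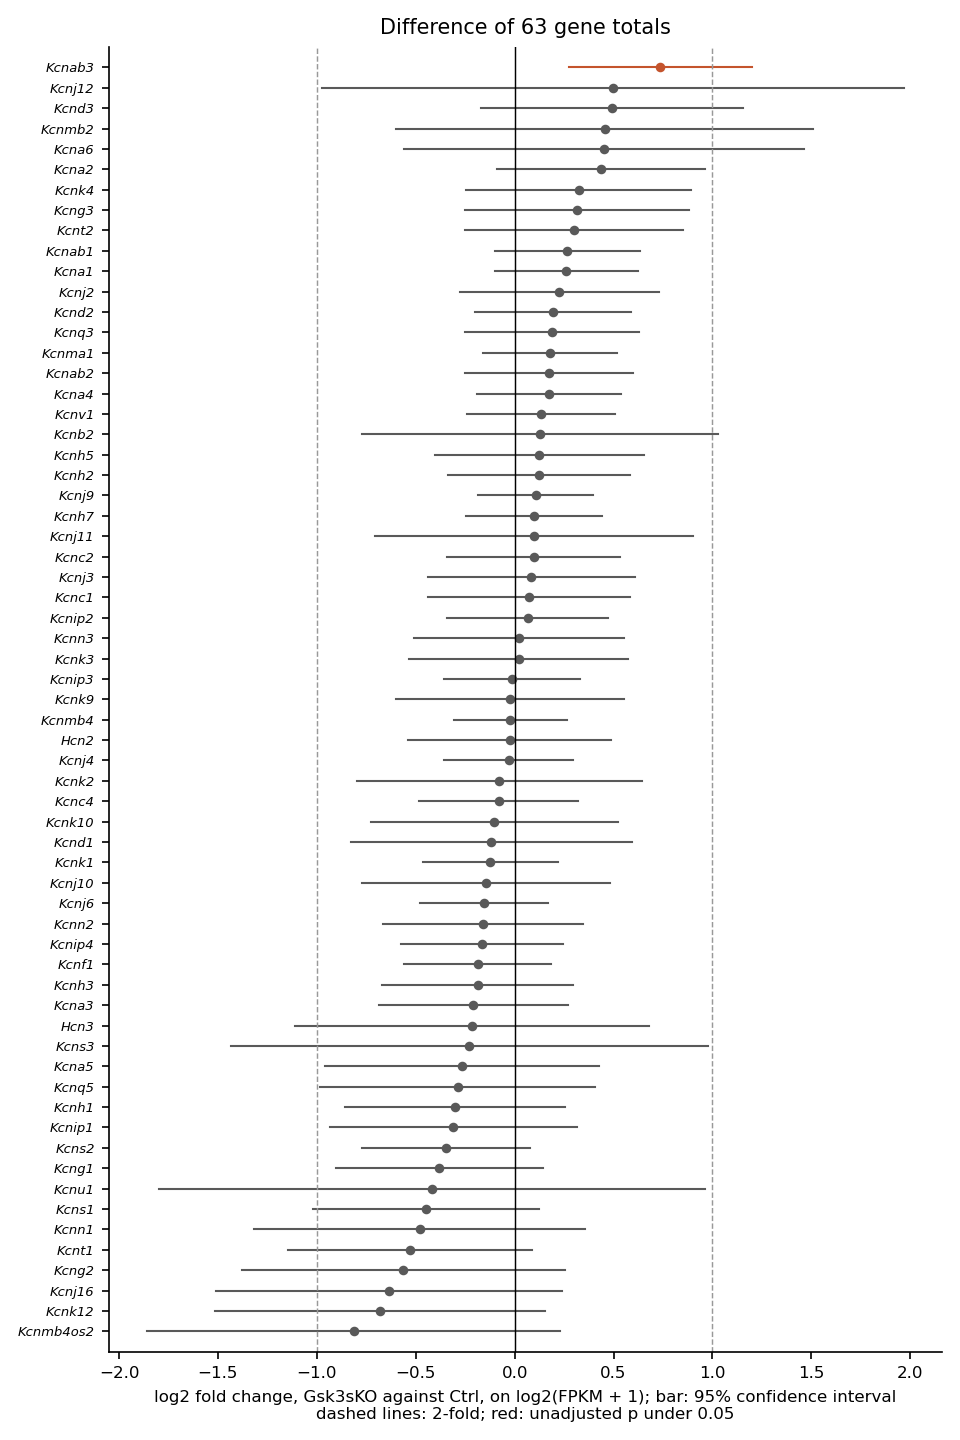
Log2 fold change of 63 of the 67 gene totals tested, Gsk3sKO against Ctrl on log2(FPKM + 1), sorted by size, with the 95% confidence interval as a bar and dashed lines at a 2-fold change. Kcnab3 at 0.74 is the called gene, drawn in red, and 47 of the 63 intervals lie between the dashed lines.

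Kcnab3 encodes Kvβ3, one of the cytoplasmic beta subunits that bind the inner face of Kv1 channels and alter their inactivation and delivery to the membrane. Its level was 5.75, 8.59 and 8.82 FPKM in Ctrl and 13.0, 13.2 and 13.8 FPKM in Gsk3sKO, with means of 7.72 ± 1.71 and 13.3 ± 0.434 FPKM (SD, n = 3). The 3 Gsk3sKO libraries lay close together and all above the highest Ctrl library, while Ctrl replicate 1 was lower than the other Ctrl libraries. The log2 fold change was 0.74 (SE 0.20, 95% confidence interval 0.27 to 1.20, unadjusted p = 0.0061, adjusted p = 0.607). A 2-sided exact permutation test over the libraries gave p = 0.1, the smallest value 3 libraries against 3 allow. Without Ctrl replicate 1 the log2 fold change was 0.56 and the call held at an unadjusted p = 0.0138.

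The gene lies at chr11:69326258-69333042 on the plus strand of GRCm38, and almost all of its level came from ENSMUST00000018614, a coding transcript of 14 exons and 2538 bases. That transcript had 5.5, 7.53 and 8.74 FPKM in Ctrl and 12.9, 13.2 and 13.8 FPKM in Gsk3sKO and was called as well (log2 fold change 0.81, SE 0.22, unadjusted p = 0.00983, adjusted p = 0.759). Its values followed the gene total in every library. About 525 to 1362 reads stood behind the gene total in a library by the estimated depth. The antisense gene Kcnab3os, on the opposite strand inside Kcnab3, had 0, 0.506 and 0.613 FPKM in Ctrl and 0, 0 and 0 FPKM in Gsk3sKO, and was thus at most 0.61 FPKM. The libraries were made with a stranded kit, but whether the counting used the strand is not given in the sources used here.

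The relatives of Kcnab3 moved less. Kcnab2, the major beta subunit of the brain, had 68.5, 89.9 and 94.6 FPKM in Ctrl and 110.1, 99.7 and 76.5 FPKM in Gsk3sKO (log2 fold change 0.17, SE 0.18), and its groups overlapped through Gsk3sKO replicate 3. By FPKM times transcript length, summed over its transcripts, its log2 fold change was 0.04. Ctrl replicate 1, the lowest library of Kcnab2 in FPKM, was its highest Ctrl library by that measure. Kcnab1, whose protein can add fast inactivation to Kv1 channels, had 16.7, 20.6 and 22.4 FPKM in Ctrl and 25.3, 23.9 and 22.8 FPKM in Gsk3sKO (log2 fold change 0.27, SE 0.16). All 3 Gsk3sKO libraries were above Ctrl for Kcnab1, but the margin over Ctrl replicate 3 was small, and its interval of -0.10 to 0.63 included 0. In coding sequence, the longest identical run between Kcnab2 and Kcnab3 is 18 bases, between Kcnab1 and Kcnab3 14 bases and between Kcnab1 and Kcnab2 26 bases. The Kcnab2 and Kcnab3 run is shown with its flanks, in capitals, to let the 2 genes be told apart by eye.
Kcnab2, chr4:152395141-152395188, minus strand: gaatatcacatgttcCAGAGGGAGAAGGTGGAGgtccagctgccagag
Kcnab3, chr11:69331108-69331155, plus strand: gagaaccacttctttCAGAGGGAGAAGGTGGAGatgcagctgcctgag

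Some cell type markers moved beside this result. Of 6 oligodendrocyte markers, 3 were called lower in Gsk3sKO (Mog, Mag and Cnp), and the summed level of the list was 118 to 183 FPKM in Ctrl and 128 to 165 FPKM in Gsk3sKO. Mog was at 0 in Gsk3sKO replicates 2 and 3, and the other 5 were above 0 in every library. In addition 1 of 5 excitatory neuron markers (Tbr1), 1 of 3 layer 5 markers (Etv1) and 1 of 5 tested microglia markers (C1qa) were called lower. None of the 4 pan-neuronal, 6 inhibitory neuron, 5 D2 and dopaminoceptive neuron, 6 astrocyte, 5 endothelial or 4 mural cell markers was called, nor was the 1 tested marker of oligodendrocyte precursors. The summed level of the D2 list was 126 to 368 FPKM in Ctrl and 180 to 341 FPKM in Gsk3sKO, with Adora2a at 0 in Ctrl replicate 1. Their part in the difference of Kcnab3 was not tested.

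**Figure D4:**
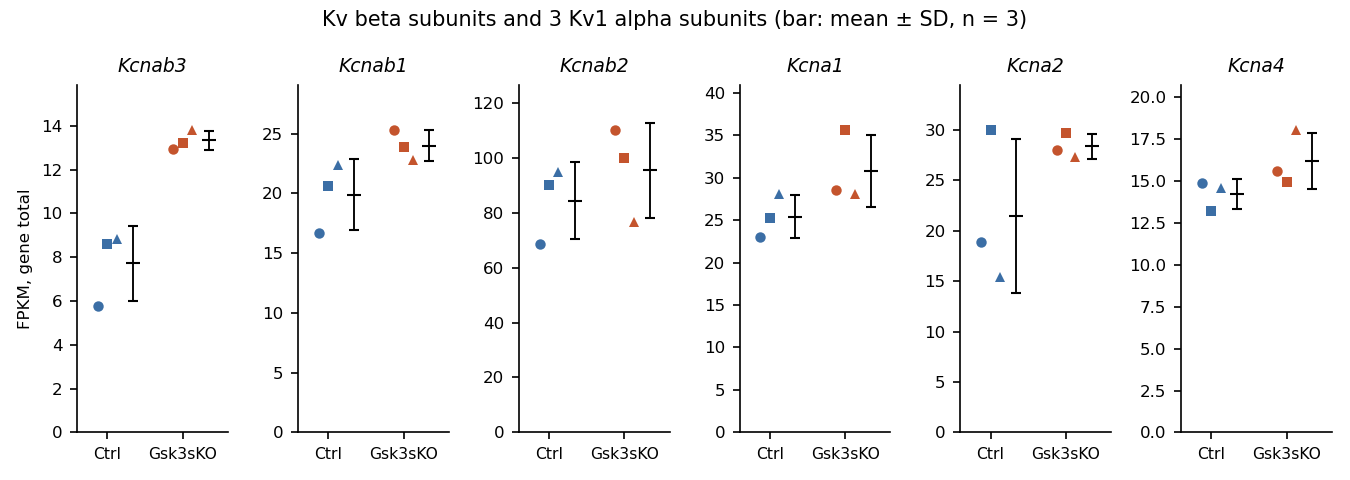
Level of the 3 Kv beta subunit genes and of 3 Kv1 alpha subunit genes in each library, as FPKM of the gene total, with points for libraries and a bar for the mean ± SD (n = 3). For Kcnab3 the Ctrl points lie at 5.75 to 8.82 and the Gsk3sKO points at 13.0 to 13.8, and for Kcnab2 the groups overlap.

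Kv1 alpha subunits, which gather in axons and at the axon initial segment and oppose firing near threshold, numbered 8 genes with 6 tested, and 0 were called. Kcna1 had 23.0, 25.2 and 28.0 FPKM in Ctrl and 28.6, 35.6 and 28.1 FPKM in Gsk3sKO (log2 fold change 0.26, SE 0.16), with all Gsk3sKO libraries above Ctrl by a margin that was narrow for Gsk3sKO replicates 1 and 3. With its highest transcript in place of the gene total, the log2 fold change of Kcna1 was -0.03. Kcna4, an inactivating subunit, had 14.9, 13.2 and 14.6 FPKM in Ctrl and 15.6, 14.9 and 18.1 FPKM in Gsk3sKO (log2 fold change 0.17, SE 0.16). Its groups did not overlap either, but Ctrl replicate 1 (14.88 FPKM) and Gsk3sKO replicate 2 (14.93 FPKM) nearly met. Kcna2, the partner of Kcna1 in many axons, had 18.9, 30.0 and 15.5 FPKM in Ctrl and 28.0, 29.7 and 27.3 FPKM in Gsk3sKO (log2 fold change 0.44, SE 0.23, unadjusted p = 0.0916). Here Ctrl replicate 2 was as high as the Gsk3sKO libraries and the other Ctrl libraries were lower, and without Ctrl replicate 2 the log2 fold change was 0.70 and was called. With each library left out in turn, the log2 fold change of Kcna2 ran from 0.24 to 0.70. Kcna6 was lower in Ctrl replicate 2 alone, with 16.7, 5.29 and 22.5 FPKM in Ctrl and 18.5, 21.6 and 14.3 FPKM in Gsk3sKO (log2 fold change 0.45, SE 0.44), and without that library its log2 fold change was -0.11. Kcna3 (6.35 to 10.3 FPKM) and Kcna5 (0.705 to 1.46 FPKM) had log2 fold changes of -0.21 and -0.27, and their groups overlapped.

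The total of Kcna2 also depended on which of its transcripts the reads were given to. In Ctrl replicate 1, ENSMUST00000197470 (4370 bases) held 18.7 FPKM and ENSMUST00000038695 (11582 bases) 0.25 FPKM, whereas ENSMUST00000197470 was at most 0.14 FPKM in the other libraries. Both transcripts encode the same number of coding bases, 1497, and differ in the length of their untranslated sequence. Without the division by length (FPKM times transcript length, summed by gene), Kcna2 was called higher in Gsk3sKO with a log2 fold change of 0.97. By that measure 4 members were called (among them Kcnab3 and Kcna2 higher and Kcns2 lower), beside 5.89% of all genes.

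Kv2 channels carry the main delayed rectifier current of the soma and proximal dendrites. Kcnb2 had 5.04, 5.56 and 7.27 FPKM in Ctrl and 6.39, 12.6 and 3.27 FPKM in Gsk3sKO (log2 fold change 0.13, SE 0.39) and its groups overlapped, with Gsk3sKO replicate 2 the highest and Gsk3sKO replicate 3 the lowest library. Its log2 fold change was -0.30 without Gsk3sKO replicate 2, 0.54 without Gsk3sKO replicate 3 and -0.31 with the highest transcript, so it has no settled direction. In Gsk3sKO replicate 2, 9.55 FPKM lay on ENSMUST00000175681 (3963 bases), which held at most 1.17 FPKM in the other libraries.

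Silent modifiers of the Kv5, Kv6, Kv8 and Kv9 groups join Kv2 subunits and change how those channels open, with no current of their own. Of 8 tested, 6 had a negative log2 fold change and 0 were called, and their median was -0.29. Kcnf1 (Kv5), the most abundant, had 31.2, 35.1 and 31.2 FPKM in Ctrl and 32.5, 30.1 and 23.4 FPKM in Gsk3sKO (log2 fold change -0.19, SE 0.16), with Gsk3sKO replicate 3 below the rest. Kcns2 (Kv9) had 8.64, 7.99 and 8.86 FPKM in Ctrl and 6.43, 5.82 and 7.16 FPKM in Gsk3sKO (log2 fold change -0.35, SE 0.18), so every Gsk3sKO library was below every Ctrl library. It was called when variances were not moderated and without the division by length. Kcns2 has 1 transcript, so for it the latter measure is FPKM times a constant and not separate evidence. Kcns1, which had 14.9, 8.85 and 9.64 FPKM in Ctrl and 9.14, 8.25 and 5.97 FPKM in Gsk3sKO (log2 fold change -0.45, SE 0.25), was highest in Ctrl replicate 1 and overlapped between the groups. Kcng1, with 8.10, 8.95 and 10.7 FPKM in Ctrl and 7.03, 8.67 and 5.17 FPKM in Gsk3sKO (log2 fold change -0.38, SE 0.23), and Kcng2, with 1.55, 1.38 and 2.86 FPKM in Ctrl and 1.38, 1.23 and 0.376 FPKM in Gsk3sKO (log2 fold change -0.56, SE 0.36), were lowest in Gsk3sKO replicate 3. Against these, Kcnv1 (Kv8), which is known to hold back Kv2 channels, had 14.4, 13.5 and 16.5 FPKM in Ctrl and 16.1, 14.9 and 18.0 FPKM in Gsk3sKO (log2 fold change 0.13, SE 0.16), and Kcng3 had 2.12, 1.97 and 2.75 FPKM in Ctrl and 2.78, 3.11 and 3.31 FPKM in Gsk3sKO (log2 fold change 0.31, SE 0.25) with all Gsk3sKO libraries above Ctrl. Kcns3, with 0.275, 2.04 and 1.84 FPKM in Ctrl and 0.394, 0.308 and 2.76 FPKM in Gsk3sKO, varied more within each group than between them.

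Kv3 channels repolarise the membrane fast enough for sustained rapid firing and are known best from parvalbumin interneurons. Kcnc1 had 20.6, 27 and 33.5 FPKM in Ctrl and 30.8, 32.5 and 21.7 FPKM in Gsk3sKO (log2 fold change 0.07, SE 0.22). Kcnc2 had 10.8, 15.9 and 14.9 FPKM in Ctrl and 15.9, 13.4 and 14.9 FPKM in Gsk3sKO (log2 fold change 0.10, SE 0.19), and Kcnc4 ran from 11.5 to 15.9 FPKM. In these 3 genes the groups overlapped, with Ctrl replicate 1 the lowest library, and none was called.

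Kv4 channels carry the A-type current of dendrites, and the KChIP proteins bind them, raise their number at the membrane and sense calcium. Kcnd2 had 18.5, 19.9 and 26.4 FPKM in Ctrl and 23.0, 26.1 and 24.5 FPKM in Gsk3sKO (log2 fold change 0.19, SE 0.17). Kcnd3 had 11.6, 6.61 and 16.4 FPKM in Ctrl and 14.1, 17.4 and 15.7 FPKM in Gsk3sKO (log2 fold change 0.49, SE 0.29), in which Ctrl replicate 2 was the lowest library and the groups overlapped through Ctrl replicate 3. Without Ctrl replicate 3 the log2 fold change of Kcnd3 was 0.77 and was called, and without Ctrl replicate 2 it was 0.17. Kcnd1 was low, at 1.03 to 2.08 FPKM.

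Among the KChIP genes, Kcnip4 had 28.3, 36.0 and 32.3 FPKM in Ctrl and 35.4, 24.6 and 26.4 FPKM in Gsk3sKO (log2 fold change -0.17, SE 0.18), Kcnip2 29.5, 21.8 and 32.5 FPKM in Ctrl and 31.0, 26.6 and 29.2 FPKM in Gsk3sKO (log2 fold change 0.07, SE 0.18) and Kcnip3, also known as a calcium-regulated repressor of transcription, 28.2, 23.3 and 30.6 FPKM in Ctrl and 26.2, 27.2 and 27.4 FPKM in Gsk3sKO (log2 fold change -0.01, SE 0.15). Their groups overlapped and their intervals lay within a 2-fold change. Kcnip1, typical of interneurons, had 9.50, 12.4 and 10.5 FPKM in Ctrl and 9.25, 11.9 and 5.41 FPKM in Gsk3sKO (log2 fold change -0.31, SE 0.27), with Gsk3sKO replicate 3 below all others. The 4 KChIP genes had a combined level above that of the 3 Kv4 genes in every library, a comparison of FPKM per length.

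Kv7 channels carry the M current, which muscarinic receptors close, and they are held at the axon initial segment. Kcnq3 had 14.3, 21.6 and 22.4 FPKM in Ctrl and 22.0, 21.1 and 22.6 FPKM in Gsk3sKO (log2 fold change 0.19, SE 0.19), where Ctrl replicate 1 was the lowest library. Kcnq5 had 22.7, 21.9 and 28.1 FPKM in Ctrl and 25.7, 25.7 and 11.2 FPKM in Gsk3sKO (log2 fold change -0.29, SE 0.30) and was lowest in Gsk3sKO replicate 3. Neither was called on the gene total.

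The EAG, ERG and ELK channels (Kcnh genes) are voltage-gated, and the ERG channels among them close slowly after a depolarisation. None of the 5 tested was called. Kcnh3 (ELK), enriched in forebrain, had 29.9, 27.2 and 32.3 FPKM in Ctrl and 30.8, 30.6 and 18.6 FPKM in Gsk3sKO (log2 fold change -0.19, SE 0.21), even in 5 libraries and lower in Gsk3sKO replicate 3. Kcnh7 (ERG) had 18.5, 22.5 and 21.6 FPKM in Ctrl and 21.3, 24.2 and 21.6 FPKM in Gsk3sKO (log2 fold change 0.10, SE 0.15) and was more even, with a 95% confidence interval of -0.25 to 0.44. Kcnh1 (EAG) had 8.57, 11.4 and 12.1 FPKM in Ctrl and 11.3, 8.07 and 6.36 FPKM in Gsk3sKO (log2 fold change -0.30, SE 0.24), with Ctrl replicate 1 and Gsk3sKO replicates 2 and 3 lower than the others. Kcnh2 (6.88 to 10.6 FPKM) and Kcnh5 (4.54 to 7.07 FPKM) both had a log2 fold change of 0.13.

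BK channels, encoded by Kcnma1, open with voltage and calcium together and shorten the action potential, and Kcnmb4 is their brain beta subunit. The Kcnma1 total was 32.6, 41.8 and 43.2 FPKM in Ctrl and 43.6, 44.4 and 44.6 FPKM in Gsk3sKO (log2 fold change 0.18, SE 0.15). Every Gsk3sKO library was above every Ctrl library, by little except for Ctrl replicate 1, and the interval of -0.16 to 0.52 included 0. Kcnmb4 had 53.4, 51.3 and 55.6 FPKM in Ctrl and 53.5, 55.6 and 48.8 FPKM in Gsk3sKO (log2 fold change -0.02, SE 0.12), one of the most even members by its FPKM total. Its coding transcript ENSMUST00000068233 was less even, at 35.9 to 52.1 FPKM. Kcnmb2, an inactivating beta subunit, had 0.535, 1.18 and 1.20 FPKM in Ctrl and 1.56, 0.495 and 3.97 FPKM in Gsk3sKO (log2 fold change 0.46, SE 0.46), highest in Gsk3sKO replicate 3.

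The antisense gene Kcnmb4os2 had 3.43, 1.69 and 2.21 FPKM in Ctrl and 2.78, 0.389 and 0.343 FPKM in Gsk3sKO (log2 fold change -0.81, SE 0.46), with Gsk3sKO replicate 1 at the level of Ctrl and the other Gsk3sKO libraries below it. Without Gsk3sKO replicate 1 the log2 fold change was -1.30 and was called, beside 9.116% of all genes called in that setting. With each library left out in turn, the log2 fold change of Kcnmb4os2 ran from -1.30 to -0.56. Kcnmb4os1 was at 0 in all 6 libraries. Reads of an antisense gene and of Kcnmb4 can be told apart only if the strand was used in counting, which is not given in the sources used here.

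Within Kcnma1, the assignment of reads to transcripts differed between the groups while the FPKM total changed little (log2 fold change 0.18). The FPKM total depends on the length of the transcripts that reads are given to. Without the division by length, the log2 fold change of the gene was 0.32 (limma, unadjusted p = 0.062) and was not called. ENSMUST00000188210 (3579 bases, 30 exons) had 27.9, 11.6 and 35.1 FPKM in Ctrl and 8.14, 9.55 and 4.51 FPKM in Gsk3sKO and was called lower (log2 fold change -1.54, SE 0.46, unadjusted p = 0.0146, adjusted p = 0.801). All 3 Gsk3sKO libraries lay below the lowest Ctrl library, which was replicate 2. ENSMUST00000179097 (4596 bases, 29 exons) had 2.53, 18.0 and 4.82 FPKM in Ctrl and 25.2, 20.0 and 16.7 FPKM in Gsk3sKO and was called higher (log2 fold change 1.55, SE 0.61, unadjusted p = 0.0427, adjusted p = 0.842), although Ctrl replicate 2 lay within the Gsk3sKO range. ENSMUST00000188285 (4440 bases, 30 exons) had 1.78, 9.30 and 1.43 FPKM in Ctrl and 7.15, 10.4 and 14.2 FPKM in Gsk3sKO and was not called (log2 fold change 1.45, SE 0.61). The share of the Kcnma1 level on ENSMUST00000188210 was 63.4% in Ctrl and 16.7% in Gsk3sKO, and that on ENSMUST00000179097 was 21.6% and 46.7%. The fall of ENSMUST00000188210 was no longer called without Ctrl replicate 1 (log2 fold change -1.39, unadjusted p = 0.0515), and the rise of ENSMUST00000179097 was called in 5 of 13 alternative settings.

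These transcripts differ in several exons and at their ends, with last exons of 152 bases in ENSMUST00000188210, 1349 in ENSMUST00000179097 and 662 in ENSMUST00000188285. Some of the coding exons that differ are shown, because reads in them help to separate one transcript from another. ENSMUST00000188210 begins with a coding exon that ENSMUST00000179097 lacks (183 bases, chr14:24003748-24003930, minus strand): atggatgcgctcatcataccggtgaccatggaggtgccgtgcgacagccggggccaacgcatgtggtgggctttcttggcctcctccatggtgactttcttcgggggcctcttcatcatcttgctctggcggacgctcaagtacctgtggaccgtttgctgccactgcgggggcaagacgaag
ENSMUST00000188285 holds 2 coding exons that neither called transcript has. One is an exon of 12 bases (chr14:23449200-23449211, minus strand), aagccgaaagcg, and the other is the long STREX exon (174 bases, chr14:23425567-23425740, minus strand), known for making BK channels more sensitive to calcium: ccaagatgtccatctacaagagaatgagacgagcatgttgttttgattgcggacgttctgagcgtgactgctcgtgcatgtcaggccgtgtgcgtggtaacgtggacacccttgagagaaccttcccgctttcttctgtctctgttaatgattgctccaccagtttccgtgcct
Both called transcripts share a coding exon that ENSMUST00000188285 lacks (81 bases, chr14:23336040-23336120, minus strand): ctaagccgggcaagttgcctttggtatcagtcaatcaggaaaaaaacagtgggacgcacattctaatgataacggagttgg
Both also share a further coding exon of 29 bases (chr14:23306725-23306753, minus strand) that ENSMUST00000188285 lacks: tgcaacaaggatgactagaatgggccaag
The deposited values are per transcript and not per exon, so the use of any one of these exons was not measured.

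**Figure D5:**
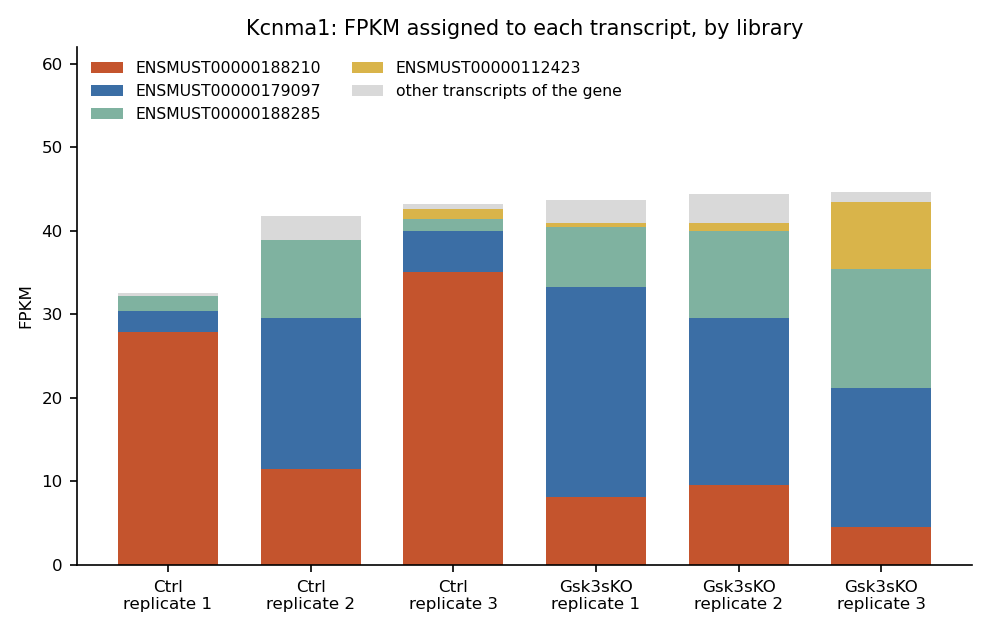
FPKM assigned to each tested Kcnma1 transcript in each library, stacked, with the transcripts that were not tested in grey, so that the bar height is the gene total. ENSMUST00000188210 fills most of the bar in Ctrl replicates 1 and 3 (27.9 and 35.1 FPKM) and 4.51 to 9.55 FPKM in Gsk3sKO, while Ctrl replicate 2 resembles the Gsk3sKO libraries.

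SK channels open on calcium alone and give the afterhyperpolarisation that follows spikes. Their 3 tested genes were low and none was called, with Kcnn3 at 4.70, 6.67 and 4.25 FPKM in Ctrl and 5.0, 5.81 and 4.88 FPKM in Gsk3sKO (log2 fold change 0.02, SE 0.23), Kcnn2 at 4.73, 5.95 and 4.64 FPKM in Ctrl and 4.09, 5.22 and 4.08 FPKM in Gsk3sKO (log2 fold change -0.16, SE 0.22) and Kcnn1 at 2.37, 1.62 and 2.13 FPKM in Ctrl and 1.42, 2.07 and 0.371 FPKM in Gsk3sKO (log2 fold change -0.48, SE 0.37). The groups overlapped for each of them, and Gsk3sKO replicate 3 was lowest for Kcnn1. The direction of Kcnn2 turned to 0.47 with protein-coding transcripts alone and to 1.13 with its highest transcript, neither of them called. The sodium-activated channels Kcnt1 (Slack) and Kcnt2 (Slick) differed in direction without being called. Kcnt1 had 8.01, 10.6 and 8.21 FPKM in Ctrl and 6.94, 7.54 and 3.73 FPKM in Gsk3sKO (log2 fold change -0.53, SE 0.27, unadjusted p = 0.0837), with every Gsk3sKO library below Ctrl, and without Gsk3sKO replicate 2 it was called at a log2 fold change of -0.69. With each library left out in turn, the log2 fold change of Kcnt1 ran from -0.69 to -0.26. Without the division by length, its groups overlapped and the log2 fold change was -0.23 (unadjusted p = 0.504). Kcnt2 had 5.54, 9.24 and 7.25 FPKM in Ctrl and 10.8, 9.61 and 7.18 FPKM in Gsk3sKO (log2 fold change 0.30, SE 0.24) with overlap. In Kcnt1 the retained-intron transcript ENSMUST00000131529 (6639 bases, no coding sequence annotated) was called higher, with 0.621, 0.166 and 0.108 FPKM in Ctrl and 1.87, 7.54 and 1.74 FPKM in Gsk3sKO (log2 fold change 1.67, SE 0.57, unadjusted p = 0.0249, adjusted p = 0.842). It made up 3.34% of the Kcnt1 level in Ctrl and 61.2% in Gsk3sKO, and in Gsk3sKO replicate 2 it was nearly all of it. The transcript passed the filter of a mean of 1 FPKM only through its Gsk3sKO levels, since every Ctrl library was below 1 FPKM. It was called in 9 of 11 alternative settings that gave a value and not without Ctrl replicate 2 or Ctrl replicate 3. Because of that filter, this count is not separate support for a rise. Without Gsk3sKO replicate 2 the transcript was under the filter on low values and was not tested. Summed over protein-coding transcripts alone, Kcnt1 was called lower with a log2 fold change of -1.59 (2 of 66 members called, beside 5.64% of all genes). Kcnu1, the Slo3 channel known from sperm, was at 3.21, 0.680 and 0.360 FPKM in Ctrl and 2.47, 0.169 and 0 FPKM in Gsk3sKO, with the highest FPKM in replicate 1 of each group. Without the division by length, Ctrl replicate 2 came close to Ctrl replicate 1 for Kcnu1.

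Over all members, 104 transcripts were tested and 5 were called, which is 4.81% beside 5.56% of all 21584 transcripts tested, and they include those of Kcnab3, Kcnma1 and Kcnt1 given above. The lowest adjusted p among them was 0.759. Groups did not overlap for 13 of the 104, beside 11.2% of all transcripts. The median standard error was 0.52 on the log2 scale for a transcript against 0.23 for a gene total. Of the 67 members tested, 43 had more than 1 transcript above 0, and for 28 of these the leading transcript was not the same in all 6 libraries. By group means the leading transcript differed between Ctrl and Gsk3sKO for 8 of the 43.

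Inward rectifiers include the strong rectifiers of the Kir2 group, the GIRK channels that G protein-coupled receptors open, ATP-sensitive channels and the glial channel Kcnj10. None of the 9 tested was called. In the Kir2 group, Kcnj4 had 48.5, 45.2 and 52.9 FPKM in Ctrl and 50.8, 51.5 and 41.5 FPKM in Gsk3sKO (log2 fold change -0.03, SE 0.14, 95% confidence interval -0.36 to 0.30), and Kcnj2 had 4.87, 3.72 and 4.13 FPKM in Ctrl and 4.49, 5.08 and 5.81 FPKM in Gsk3sKO (log2 fold change 0.23, SE 0.22). The groups overlapped for both. Kcnj12 was at 0.172, 6.27 and 5.93 FPKM in Ctrl and 4.85, 3.79 and 4.94 FPKM in Gsk3sKO, with Ctrl replicate 1 far below the other libraries.

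The GIRK subunits, effectors of the D2 receptor, were close between the groups. Kcnj9 had 40.5, 38.1 and 40.2 FPKM in Ctrl and 44.8, 43.5 and 40.0 FPKM in Gsk3sKO (log2 fold change 0.11, SE 0.13, 95% confidence interval -0.18 to 0.39). Kcnj6 had 21.1, 22.8 and 21.3 FPKM in Ctrl and 18.8, 20.9 and 18.7 FPKM in Gsk3sKO (log2 fold change -0.15, SE 0.14, 95% confidence interval -0.48 to 0.17), with every Gsk3sKO library below Ctrl by a margin of at most a few FPKM. Kcnj3, whose protein depends on partners such as that of Kcnj6 to reach the membrane, had 11.6, 14.4 and 20.0 FPKM in Ctrl and 18.6, 16.5 and 13.1 FPKM in Gsk3sKO (log2 fold change 0.08, SE 0.23, 95% confidence interval -0.44 to 0.61) and overlapped, and Kcnj5 was at most 0.146 FPKM. The GIRK genes thus stood in the same order, Kcnj9 above Kcnj6 above Kcnj3, in both group means, although Kcnj6 and Kcnj3 came close in Ctrl replicate 3 and Gsk3sKO replicate 1.

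Kcnj11, the pore of ATP-sensitive channels of neurons, had 4.43, 4.75 and 8.57 FPKM in Ctrl and 10.2, 4.01 and 5.54 FPKM in Gsk3sKO (log2 fold change 0.10, SE 0.35), and its 2 highest libraries were 1 from each group. Its vascular counterpart Kcnj8 was below the level for a test, with 0.174, 1.13 and 0.865 FPKM in Ctrl and 0.252, 0 and 0.339 FPKM in Gsk3sKO. Kcnj10, which clears potassium in astrocytes, had 6.22, 6.34 and 4.04 FPKM in Ctrl and 3.54, 4.73 and 6.6 FPKM in Gsk3sKO (log2 fold change -0.14, SE 0.27). The summed level of 6 astrocyte markers was 82.0 to 104 FPKM in Ctrl and 82.4 to 102 FPKM in Gsk3sKO, so RNA of astrocytes was present in both groups. Kcnj16, a partner of Kcnj10, had 1.73, 1.79 and 1.91 FPKM in Ctrl and 1.41, 1.28 and 0.0780 FPKM in Gsk3sKO (log2 fold change -0.63, SE 0.38), below Ctrl in every Gsk3sKO library and near 0 in replicate 3.

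K2P channels set the resting conductance, and 7 of 14 were tested with 0 called. Kcnk1 led with 34.7, 28.1 and 32.1 FPKM in Ctrl and 31.8, 28.9 and 26.2 FPKM in Gsk3sKO (log2 fold change -0.12, SE 0.15). The mechanosensitive and lipid-sensitive Kcnk2 had 7.87, 9.2 and 11.8 FPKM in Ctrl and 11.9, 5.08 and 11.5 FPKM in Gsk3sKO (log2 fold change -0.08, SE 0.31), and its relatives Kcnk4 and Kcnk10 ran from 2.01 to 3.90 FPKM and from 1.92 to 3.28 FPKM. Kcnk4 was above Ctrl in every Gsk3sKO library (log2 fold change 0.32, SE 0.25). The acid-sensitive Kcnk9 had 5.74, 11.2 and 9.88 FPKM in Ctrl and 9.07, 7.66 and 8.79 FPKM in Gsk3sKO (log2 fold change -0.02, SE 0.25) and Kcnk3 3.12, 4.49 and 4.11 FPKM in Ctrl and 4.21, 4.48 and 3.23 FPKM in Gsk3sKO (log2 fold change 0.02, SE 0.24), both with overlapping groups. Kcnk12 had 2.45, 2.76 and 1.29 FPKM in Ctrl and 1.83, 0.673 and 0.525 FPKM in Gsk3sKO (log2 fold change -0.68, SE 0.37, unadjusted p = 0.0979), where Ctrl replicate 3 lay below Gsk3sKO replicate 1. Without Gsk3sKO replicate 1 the log2 fold change of Kcnk12 was -0.96 and was called, beside 9.116% of all genes called in that setting. With each library left out in turn, the log2 fold change of Kcnk12 ran from -0.96 to -0.51.

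HCN channels carry the h current, which dampens dendritic inputs, and in the prefrontal cortex they are closely tied to cyclic AMP signalling. Hcn2 had 13.8, 20.8 and 22.1 FPKM in Ctrl and 18.8, 21.7 and 14.7 FPKM in Gsk3sKO (log2 fold change -0.02, SE 0.22, 95% confidence interval -0.54 to 0.49). The groups overlapped, and the lowest library of each group was the one that stood low for many members, Ctrl replicate 1 and Gsk3sKO replicate 3. Hcn3 had 2.27, 2.53 and 1.07 FPKM in Ctrl and 1.56, 2.68 and 0.626 FPKM in Gsk3sKO (log2 fold change -0.22, SE 0.39) and Hcn4, below the level for a test, had 0.0176, 0.561 and 1.0 FPKM in Ctrl and 0.693, 0.373 and 0.320 FPKM in Gsk3sKO. Neither Hcn2 nor Hcn3 was called.

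The 33 members without a test were low or at 0. Of these 11 were at 0 in all 6 libraries, namely Kcna7, Kcne1, Kcne2, Kcne3, Kcnh8, Kcnj1, Kcnk7, Kcnk16, Kcnk18, Kcnmb3 and Kcnmb4os1. Of the KCNE subunits, small membrane proteins best known from heart and epithelia, Kcne4 was the highest at 0 to 0.509 FPKM. Kcnq1, Kcna10, Kcnj13, Kcnj14, Kcnj15, Kcnk5, Kcnk6, Kcnk13, Kcnk15, Kcnn4, Kcnmb1, Kcne1l, Kcng4, Kcnv2, Kcnh4, Kcnh6, Kcnj5, Kcnj8, Kcnrg and Hcn4 were above 0 in at least 1 library and averaged below 1 FPKM.

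Channels work with partners that anchor, traffic or tune them, and a list of 51 such genes was compared with the channels themselves. Of 47 tested, 0 were called, beside 6.56% of all genes. The median log2 fold change was -0.02, with 21 above 0 and 26 below, beside a median of -0.06 over all genes. For Kv4 channels, Dpp6 had 57.7, 63.6 and 74.0 FPKM in Ctrl and 74.3, 73.8 and 54.5 FPKM in Gsk3sKO (log2 fold change 0.05, SE 0.17) and Dpp10 17.5, 15.3 and 17.5 FPKM in Ctrl and 15.7, 15.9 and 15.3 FPKM in Gsk3sKO (log2 fold change -0.09, SE 0.15). For Kv2, the adhesion protein Amigo1 had 14.5, 5.90 and 17.0 FPKM in Ctrl and 6.31, 6.77 and 12.6 FPKM in Gsk3sKO (log2 fold change -0.44, SE 0.39), with the groups overlapping. For Kv1 clusters in axons, Cntnap2 had 10.5, 10.7 and 12.2 FPKM in Ctrl and 13.0, 11.7 and 11.8 FPKM in Gsk3sKO (log2 fold change 0.12, SE 0.16) and Lgi1 14.5, 20.3 and 11.6 FPKM in Ctrl and 8.07, 7.98 and 15.7 FPKM in Gsk3sKO (log2 fold change -0.54, SE 0.30). For HCN channels, the dendritic targeting protein Pex5l had 67.0, 69.7 and 55.9 FPKM in Ctrl and 68.2, 86.6 and 48.8 FPKM in Gsk3sKO (log2 fold change 0.05, SE 0.21). The scaffold Dlg4 had 130.4, 168 and 181 FPKM in Ctrl and 144, 133 and 94.5 FPKM in Gsk3sKO (log2 fold change -0.37, SE 0.20), lowest in Gsk3sKO replicate 3, and the anchor Ank3, which binds Kv7 at the initial segment, had 70.2, 79.9 and 64.5 FPKM in Ctrl and 70.7, 83.6 and 57.9 FPKM in Gsk3sKO (log2 fold change -0.03, SE 0.17). In all of these partners the groups overlapped.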

How the data were processed

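RNAseq of ribosome-associated RNA covered 3 Ctrl and 3 Gsk3sKO libraries, grouped by the submitters' titles, all 6 of which were used (0 value columns left aside). The authors deposited FPKM per transcript and library, made on GRCm38. The submitters' processing notes name StringTie 1.3.4d, HISAT2 2.1.0 and SAMtools 1.9, with settings not given in the sources used here. Dividing reads between overlapping transcripts is an estimate, so transcripts of a gene can trade levels. The authors' deposited folds, p-values and q-values were not used.

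FPKM was summed by gene, and log2(FPKM + 1) was fitted with limma 3.58.1 in R 4.3.3 (lmFit, eBayes with trend) over all genes, or all transcripts, with a mean of at least 1 FPKM. Tests were 2-sided with Benjamini-Hochberg adjustment over the whole table. A call is an unadjusted p under 0.05. The fit was tested on simulated data. The steps between low values of transcripts over 800 bases gave the depth estimate. The replicate numbers are shared by the groups, but same-numbered libraries did not deviate together (correlations -0.03, -0.01 and -0.08), so no pairing was used.

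Positions, exons and transcript types came from GENCODE M21, in which all 115220 transcripts were found. Python 3.11.15 with pandas 2.3.3, numpy 2.4.6, matplotlib 3.10.9 and scipy 1.17.1 was used for tables and figures. The members, the partner list and the marker lists were chosen with earlier results of these data known. Genes are named if the total or a transcript was called, if they lead their subfamily, or for a known role in cortex, whatever their values. Others (Kcnh2, Kcnh5, Kcnj12, Kcnj16, Kcnk4, Kcnk10, Kcnu1, and further members and partners given with values) were named after their values were seen. Some members are counted in the totals but not reported here by name. Alternatives were another pseudocount, filter, scaling, moderation, a replicate block, leaving out each library, the highest transcript of a gene, and 2 chosen after seeing the data, namely a value not divided by length (FPKM times transcript length) and protein-coding transcripts alone.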

Additional observations from a re-analysis of the deposited data

How the results depend on the processing

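The count of 0 members with an adjusted p under 0.05 held in all 16 alternative settings, and Kcnab3 was called higher in each of the 16, with log2 fold changes of 0.56 to 0.83. The median log2 fold change of the members ran from -0.06 to 0.07, and rescaling the libraries to the median ratio gave 0.03 (all genes -0.01). The number of members called, 1 as reported, was 3 with no filter on low values (among them Kcnab3 and Kcns2), 2 without moderation of variances (Kcnab3 and Kcns2), 2 with the highest transcript in place of the gene total (Kcnab3 and Kcnma1), 4 without the division by length and 2 with protein-coding transcripts alone, and 1 to 3 when a library was left out. Beside Kcnab3, these included Kcna2 without Ctrl replicate 2, Kcnd3 without Ctrl replicate 3, Kcnk12 and Kcnmb4os2 without Gsk3sKO replicate 1, and Kcnt1 without Gsk3sKO replicate 2. The share called over all genes was 4.199% with no filter on low values, where 3 of 89 members were called. It was 5.398% without moderation (2 of 67 members) and 6.007% with the highest transcript (2 of 63 members). When a library was left out, the share over all genes was 4.487% to 9.116%. With the replicate number as a block, 1 member was called (Kcnab3, unadjusted p = 0.0118), and the number of called transcripts was 3 in place of 5. That number was also 3 at a mean of at least 5 FPKM and 2 to 6 when a library was left out, lowest without Ctrl replicate 1. Of the partners, 0 as reported, 1 was called without moderation (Ywhaz), with the highest transcript (Adam23) and with protein-coding transcripts alone (Adam23), and 0 to 1 when a library was left out (Dlg4 without Ctrl replicate 1, Amigo1 without Ctrl replicate 2, Sptbn4 without Ctrl replicate 3 and Lgi1 without Gsk3sKO replicate 3). Of 1044 pairs of a tested member and an alternative setting, 995 kept the call and moved by less than 1 standard error, 36 moved by more and 13 gained a call, and the cause was not tested. With the highest transcript in place of the gene total, the log2 fold change was 1.84 for Kcna2 (0.44 as reported) and -1.54 for Kcnma1 (0.18). Leaving out 1 library turned the direction of further members, none of them called, among them Kcnk2 (0.28 without Gsk3sKO replicate 2), Kcnh3 and Kcnq5 (0.04 and 0.09 without Gsk3sKO replicate 3) and Kcnj12 and Kcnq3 (-0.37 and -0.01 without Ctrl replicate 1). The median standard error was 0.52 on the log2 scale for a transcript and 0.23 for a gene total, which limits how small a difference is detectable.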
